A study of Caenorhabditis elegans with 2 samples.

Results

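*rpr-1*, *mrpr-1* and *yrn-1* are the *Caenorhabditis elegans* genes for the RNase P RNA, the RNase MRP RNA and the Y RNA, and they are 3 of 46926 genes in the annotation used. They were chosen by name after their peaks in these data were known, so signals, ranks and summit positions at them are given as a description, with no test. ChIP-seq for SNPC-4 was done on whole L2 larvae, labelled as pooled male and female, of strain OP179 (*unc-119(ed3) III; wgIs179*), which carries eGFP-tagged *snpc-4* on the transgene wgIs179. Both biological replicates form 1 group, and no untagged or mutant group is among the samples analysed. The authors' lists on the ce11 build held 30000 candidate peaks for the pooled replicates, 21391 for replicate 1 and 30000 for replicate 2. The authors kept 1864 peaks (6.21% of the pooled candidates) by irreproducible discovery rate (IDR), a method that asks how well peak ranks match between replicates, and these were the strongest of the pooled list. Read depth is unknown, because only peak lists were used, and a tagged transgene in the whole animal cannot show in which cells binding took place.

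RNase P is the ribonucleoprotein that removes the 5' leader from precursor tRNAs, and RNase MRP is its relative, best known for cutting precursor ribosomal RNA. The RNAs of both enzymes are their catalytic or structural core. Y RNAs are small RNAs bound by the Ro60 protein, which is encoded by *rop-1* in the worm. In vertebrates all of these RNAs are made by RNA polymerase III from promoters that lie outside the gene, with a proximal sequence element bound by the small nuclear RNA activating protein complex and a TATA box downstream of it. U6 RNA genes have the same arrangement, while the other spliceosomal RNA genes have a proximal element without a TATA box and are read by RNA polymerase II. SNPC-4 is the worm subunit of that complex, so the sequence just upstream of each RNA is where its peaks can be compared with the promoter.

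The upstream sequences of *mrpr-1* and *yrn-1* are shown because the peak summits lie in them, beside those of a U6 gene with a strong IDR peak and of *T11F9.15*, another snRNA gene with a strong peak. Each line gives the 100 bases before the RNA, 5' to 3' on the RNA strand, from the RefSeq copy of WBcel235, the assembly of ce11, and all 4 genes are on the plus strand. Capitals mark the proximal word TGTCNG and, where one follows it by 15 to 35 bases, the TATA word TATATA. The windows are chrII:7200133-7200232 for *mrpr-1*, chrIV:7499408-7499507 for *yrn-1*, chrIII:10989579-10989678 for the U6 gene and chrV:11980018-11980117 for *T11F9.15*.
mrpr-1: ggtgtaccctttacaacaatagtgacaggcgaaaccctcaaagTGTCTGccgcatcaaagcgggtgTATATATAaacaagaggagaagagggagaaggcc
yrn-1: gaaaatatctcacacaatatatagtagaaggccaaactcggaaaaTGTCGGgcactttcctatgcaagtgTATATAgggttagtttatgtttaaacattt
R07E5.16 (U6): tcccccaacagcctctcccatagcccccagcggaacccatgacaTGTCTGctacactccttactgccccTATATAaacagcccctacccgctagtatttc
T11F9.15: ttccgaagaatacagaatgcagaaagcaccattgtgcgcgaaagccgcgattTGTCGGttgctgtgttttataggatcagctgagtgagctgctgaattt

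The genes differ in their surroundings. *rpr-1* (WBGene00045238, I, 13463955 to 13464207, plus strand, 253 bp) lies in an intron of *ints-8*, which encodes an Integrator complex subunit and runs on the opposite strand; the intron covers 13462739 to 13464761. *mrpr-1* (WBGene00045095, II, 7200233 to 7200418, plus strand, 186 bp) overlaps no annotated gene. *yrn-1* (WBGene00006967, IV, 7499508 to 7499612, plus strand, 105 bp) lies in an intron of 281 bp in the coding gene *F55G1.15*, which also runs on the opposite strand. It is also covered by an unclassified noncoding RNA gene on the opposite strand, *F55G1.20* (IV, 7499419 to 7499643). The annotation files class *rpr-1* and *mrpr-1* only as noncoding RNA, so their identity as RNase P and MRP RNA rests on the gene names. All 266 words of 36 bases within 150 bp of each IDR summit occurred once in the genome, so no identical copy competes for reads of that length at any of the genes.

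Each gene had exactly 1 summit within 500 bp in every one of the 4 lists. All 3 had an IDR summit, whereas 7.89% of 9426 nuclear noncoding genes other than piRNA genes had one at that distance, and nothing is read from this difference because the genes were picked from these lists. That share was 6.79% within 250 bp, 10.1% within 1000 bp and 4.7% for the 932 strongest IDR peaks. By class it was 28.6% of U6 genes, 44.4% of other snRNA and SL RNA genes, 23.7% of snoRNA genes, 13.1% of tRNA genes, 7.28% of miRNA genes and 6.3% of the remaining noncoding genes, with *rpr-1*, *mrpr-1* and *yrn-1* counted in the last class. Uniqueness of sequence was checked only at these 3 genes, and the part of repeated sequence in the class shares was not tested. Candidate summits were common, at 45.9% of the 9426 noncoding genes in the pooled list, 37% in replicate 1 and 43.8% in replicate 2. The signal of a peak is the authors' own strength value, and its scaling to depth was not stated, so signals are compared within a list and lists are compared by rank.

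At *rpr-1* the pooled signal was 1728, which ranked 12 of 30000. The replicate 1 signal was 436, which ranked 14 of 21391, and the replicate 2 signal was 1290, which ranked 13 of 30000. The RNase P RNA gene was thus among the 14 strongest peaks of each list, and its signal was 44.9% of the highest in the pooled list, 42.9% in replicate 1 and 45.2% in replicate 2.

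At *mrpr-1* the pooled signal was 1285, with rank 22. In replicate 1 the signal was 324, with rank 20, and in replicate 2 it was 964, with rank 21. The MRP RNA gene lay close behind *rpr-1* in every list.

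At *yrn-1* the pooled signal was 55.4, with rank 604 of 30000, which is also rank 604 of the 1864 IDR peaks. The replicate 1 signal was 12.4, with rank 766, and the replicate 2 signal was 41.8, with rank 661. The Y RNA gene lay in the upper part of each list, at 2.01% of the pooled list from the top, but far below the other genes.

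The order *rpr-1*, *mrpr-1*, *yrn-1* was the same in each list. The signal at *rpr-1* was 1.34 times that at *mrpr-1* in both replicates (mean 1.34 ± 0.00391, SD, n = 2). It was 35.2 times that at *yrn-1* in replicate 1 and 30.8 times in replicate 2 (mean 33.0 ± 3.09, SD, n = 2). The signal at *mrpr-1* was 26.2 and 23.0 times that at *yrn-1* (mean 24.6 ± 2.23, SD, n = 2). These spreads rest on 2 replicates, and all 3 peaks had passed IDR, which favours peaks with matching ranks. No test was run because the genes were chosen with these values known. The GC content of the 100 bases upstream fell in the same order, at 69% for *rpr-1*, 48% for *mrpr-1* and 34% for *yrn-1*, and its part in the order of the signals was not tested.

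**Figure D1:**
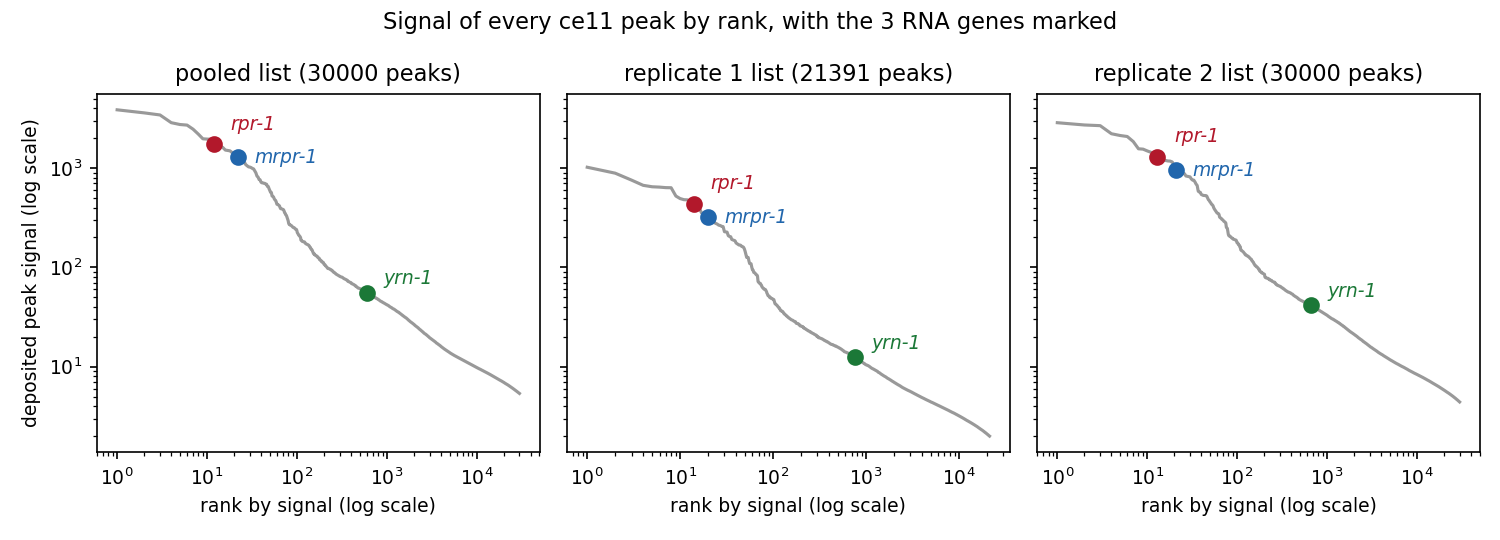
Deposited peak signal against rank by signal, both on log scales, for every ce11 peak of the pooled, replicate 1 and replicate 2 lists (grey lines), with the 3 RNA genes as coloured points. In each list *rpr-1* and *mrpr-1* lie within the top 22 ranks, and *yrn-1* lies between ranks 604 and 766.

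The genes nearest in rank show what kind of peak each one sits among. Directly above *rpr-1* in the IDR list were peaks nearest to the noncoding RNA genes *Y37E3.29* (signal 1954) and *F38E11.24* (1948), and directly below were the snoRNA gene *F59C6.15* (1671) and the noncoding RNA gene *F58G1.11* (1670). Above *mrpr-1* were a mitochondrial peak in the coding gene WBGene00010967 (1312), which replicate 1 lacked, and the snoRNA gene *T26A8.6* (1310). Below it were the snoRNA gene *Y74C9A.6* (1172) and *T06D8.17* (1166), a noncoding RNA gene. The neighbours of *yrn-1* differed from its signal by less than 0.5% and included the coding genes *ntl-2* (55.5, 411 bp from the summit) and *F36D3.1* (55.4, 129 bp away). The other neighbours of *yrn-1* were the noncoding RNA genes *Y39A1A.28* (55.4) and *H06I04.13* (55.1). Strong peaks around the ranks of *rpr-1* and *mrpr-1* were thus mostly nearest to noncoding RNA genes, and those around *yrn-1* were mixed.

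Peak width carried little information beyond signal, because the caller gave most peaks a fixed width, 310 bp for 99.2% of the pooled and 99.3% of the replicate 2 list and 250 bp for 99.6% of the replicate 1 list. The *yrn-1* peak had that width in each list. The *rpr-1* peak was wider, at 430 bp in the pooled list, 262 bp in replicate 1 and 409 bp in replicate 2. At *mrpr-1* the width was 342 bp in the pooled list and 338 bp in replicate 2, above the common width, and 233 bp in replicate 1, below it. Only 11 of the 1864 IDR peaks were wider than that of *rpr-1*, and 31 were wider than that of *mrpr-1*.

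All summits lay upstream of the RNA. At *rpr-1* the summit was 31 bp upstream of the 5' end in the pooled list and 29 bp in both replicates. At *mrpr-1* it was 37 bp upstream in the pooled list, 35 bp in replicate 1 and 44 bp in replicate 2. At *yrn-1* it was 50 bp upstream in the pooled list, 28 bp in replicate 1 and 51 bp in replicate 2. The replicate summits were 0, 9 and 23 bp apart at *rpr-1*, *mrpr-1* and *yrn-1*, and the median gap over 1737 IDR peaks with a peak in both replicates was 23 bp (quartiles 10 and 49). At 6 of 21 U6 genes with an IDR summit within 250 bp the summit lay 56 to 67 bp upstream, with a median of 60 bp. At 46 of the 108 other snRNA and SL RNA genes the median position was -49.5 bp (quartiles -58 and -40.25). The summits of *rpr-1*, *mrpr-1* and *yrn-1* were nearer to the RNA in every list than the 6 IDR summits at U6 genes, and that difference was not tested. The signals at the 6 U6 genes ran from 100.4 to 3418 with a median of 371, so *rpr-1* and *mrpr-1* fell inside that range and *yrn-1* below it.

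**Figure D2:**
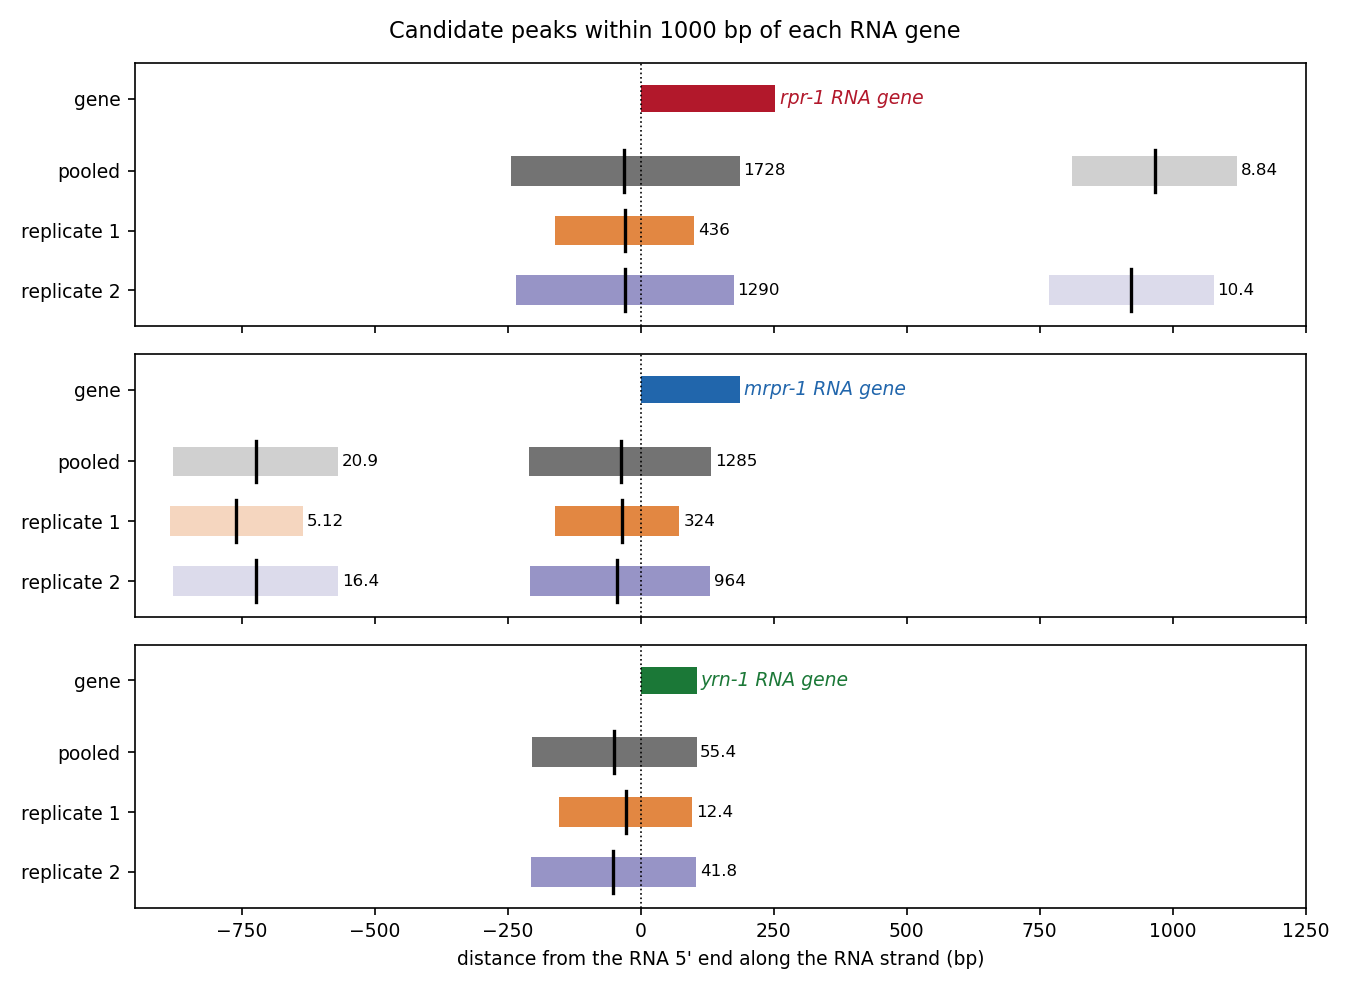
Candidate peaks (bars, with the signal beside each and the summit as a black line) within 1000 bp of each RNA gene, against distance from the RNA 5' end in bp, for the pooled, replicate 1 and replicate 2 lists. Dark bars have their summit within 500 bp of the gene and pale bars lie farther out; each dark bar spans the 5' end and has its summit upstream of it.

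The nearest coding gene gives no closer start for these peaks. The *mrpr-1* summit lay 353 bp upstream of *pcrg-1*, the coding gene directly downstream on the same strand, against 37 bp from the RNA itself. At *rpr-1* the nearest coding 5' end, of an *ints-8* transcript, was 922 bp away, and the summit lay inside that transcript. At *yrn-1* it was that of *egas-4*, 1608 bp away. The *yrn-1* summit also lay inside *F55G1.20*, a gene on the other strand, 185 bp past its 5' end. It was nearer to the 5' end of *yrn-1*, 50 bp upstream of it. Which of these genes the peak belongs to was not tested. The next IDR summit was 6531 bp away from that of *rpr-1*, 16091 bp from that of *mrpr-1* and 8842 bp from that of *yrn-1*. In the pooled list the next candidate summit was 997, 686 and 1559 bp away.

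Weaker candidates beyond 500 bp lay near 5' ends of coding transcripts. Relative to the *mrpr-1* 5' end one was at -723 bp in the pooled list (signal 20.9, rank 2766) and in replicate 2 (16.4), and at -760 bp in replicate 1 (5.12). In the pooled list it was 55 bp inside the coding gene *E04F6.6*. Another lay 966 bp past the *rpr-1* 5' end in the pooled list (signal 8.84, rank 12541), and replicate 1 lacked it. This candidate was 75 bp upstream of the 5' end of an *ints-8* transcript that starts inside the *ints-8* gene. Neither passed IDR.

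The 100 bases upstream of the RNAs shared a layout. The word TGTCNG, read on the RNA strand, occurred once in each window and started 55 bases upstream of the 5' end at *rpr-1*, 57 at *mrpr-1* and 55 at *yrn-1*. TATATA, which reads the same on both strands, started 30 bases upstream at *rpr-1* and *yrn-1*, and at *mrpr-1* at 34 and 32 in overlapping copies. The distance from the start of TGTCNG to that of TATATA was therefore 25 bases at *rpr-1* and *yrn-1*, and 23 and 25 at *mrpr-1*. It was also 25 in the U6 gene shown above, whereas *T11F9.15* has TGTCGG and no TATATA in its window. A second TATATA at *yrn-1*, 83 bases upstream and left in lower case, precedes the proximal word. TATAAA, another TATA word that was searched, occurred only at *mrpr-1*, and it was upstream of 42.9% of U6 genes and 12.7% of coding genes. On the opposite strand TGTCNG also occurred at *rpr-1*. The word TGTCNG was chosen after the sequences of the 3 genes had been seen, and TATATA and the spacing after the data were seen. Matches at the 3 genes are therefore no evidence for the words or the spacing.

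The 8-base word found most often upstream of snRNA and SL RNA genes, CGGAACCC, was in 30 of their 119 distinct windows. At *rpr-1* it matched without a mismatch, at *mrpr-1* with 1 and at *yrn-1* with 3, on the RNA strand. Of the other noncoding genes, the class that holds these genes, 0.0495% had it without a mismatch, 1.65% with up to 1 and 16.9% with up to 2. Among coding genes the shares were 0.025%, 0.956% and 12.3%. The share with 3 mismatches was not counted, so the match at *yrn-1* has no background beside it. The best match began 69 bases upstream at *rpr-1* and 71 at *mrpr-1*, which is 14 bases before TGTCNG at both. At *yrn-1* 2 positions tied, at 69 and 62 bases upstream, 14 and 7 bases before TGTCNG, so no single best position can be given there. The match began 14 bases before TGTCNG at the U6 gene, with 0 mismatches, and at *T11F9.15*, with 2. Over 28 bases, from 20 before TGTCNG to 8 after its start, *rpr-1* and *mrpr-1* had 20 identical bases, *mrpr-1* and *yrn-1* 18, and *rpr-1* and *yrn-1* 15. The fixed bases of TGTCNG are identical in each pair by the choice of that word. No such count was made for other genes, so likeness of the rest of the stretch was not tested. The gene with the weakest peak, *yrn-1*, was thus the one with the poorest match to the 8-base word, and with 3 genes no relation between match and signal can be tested.

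**Figure D3:**
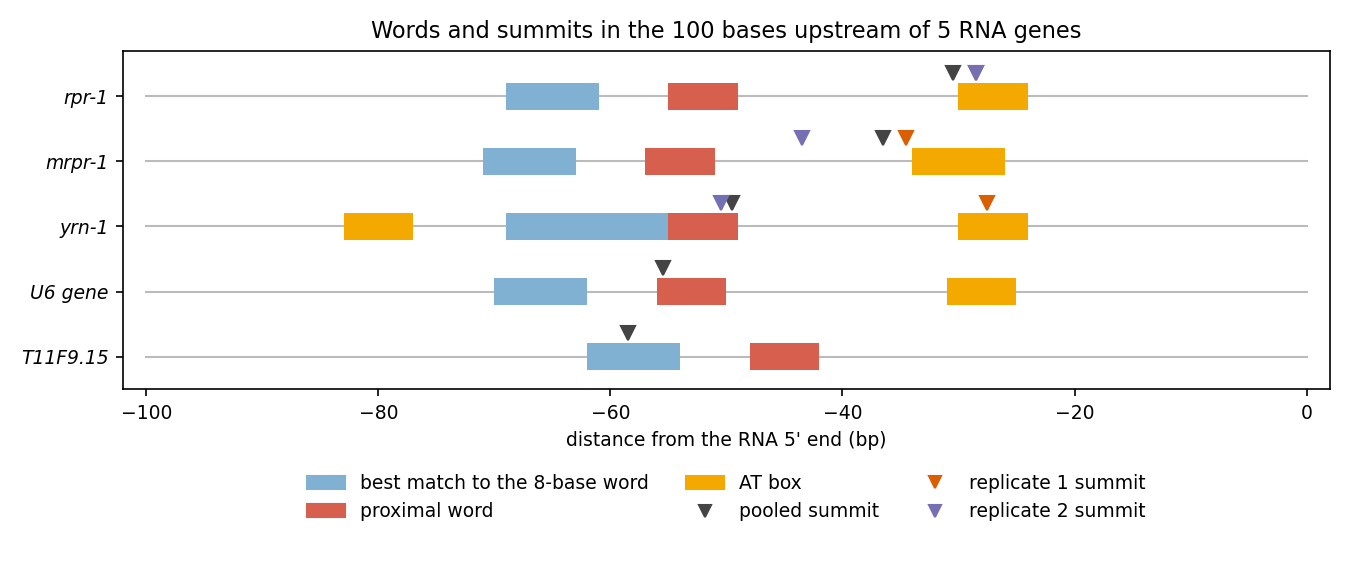
Positions of the best match to the 8-base word (blue), the proximal word (red) and TATATA, labelled AT box (yellow), against distance from the RNA 5' end in bp, with summits as triangles; *yrn-1* has 2 equally good, overlapping matches to the 8-base word, drawn as 1 bar that runs into the proximal word, and at *rpr-1* both replicate summits lie at the same base. The 5 genes are the 3 RNA genes, the strongest U6 gene outside chromosome I and the snRNA gene *T11F9.15*, which has no AT box.

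The summits lay on or downstream of the proximal word. Relative to the start of TGTCNG the IDR summit was 24 bases downstream at *rpr-1*, 20 at *mrpr-1* and 5 at *yrn-1*. At *rpr-1* the summit stood next to TATATA in the pooled list and on it in both replicates. At *mrpr-1* it stood between the 2 words in every list. At *yrn-1* it stood on the proximal word in the pooled list and in replicate 2 and on TATATA in replicate 1. The words start 25 bases apart at *rpr-1* and *yrn-1*, and the median gap between replicate summits over IDR peaks was 23 bp. Summit positions therefore cannot tell one word from the other.

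The shares of other genes with the same words show how common each one is. TGTCNG was upstream of 57.1% of 21 U6 genes, 62% of 108 other snRNA and SL RNA genes and 5.08% of 19973 nuclear coding genes. TATATA was upstream of 76.2% of U6 genes but of 3.7% of the other snRNA and SL RNA genes and 5.68% of coding genes. The pair, TGTCNG followed by TATATA after 15 to 35 bases, was upstream of 11 U6 genes (52.4%), 1 other snRNA gene, 2 of 346 snoRNA genes, 1 of 261 miRNA genes and 0 of 612 nuclear tRNA genes. Among 8074 other noncoding genes 12 had it (0.149%), and *rpr-1*, *mrpr-1* and *yrn-1* are 3 of these 12. Of the coding genes 16 had it (0.0801%), and 1 had it at a spacing of exactly 25 bases, which all 11 U6 genes had. A match is a string of letters and not a measured binding site.

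**Figure D4:**
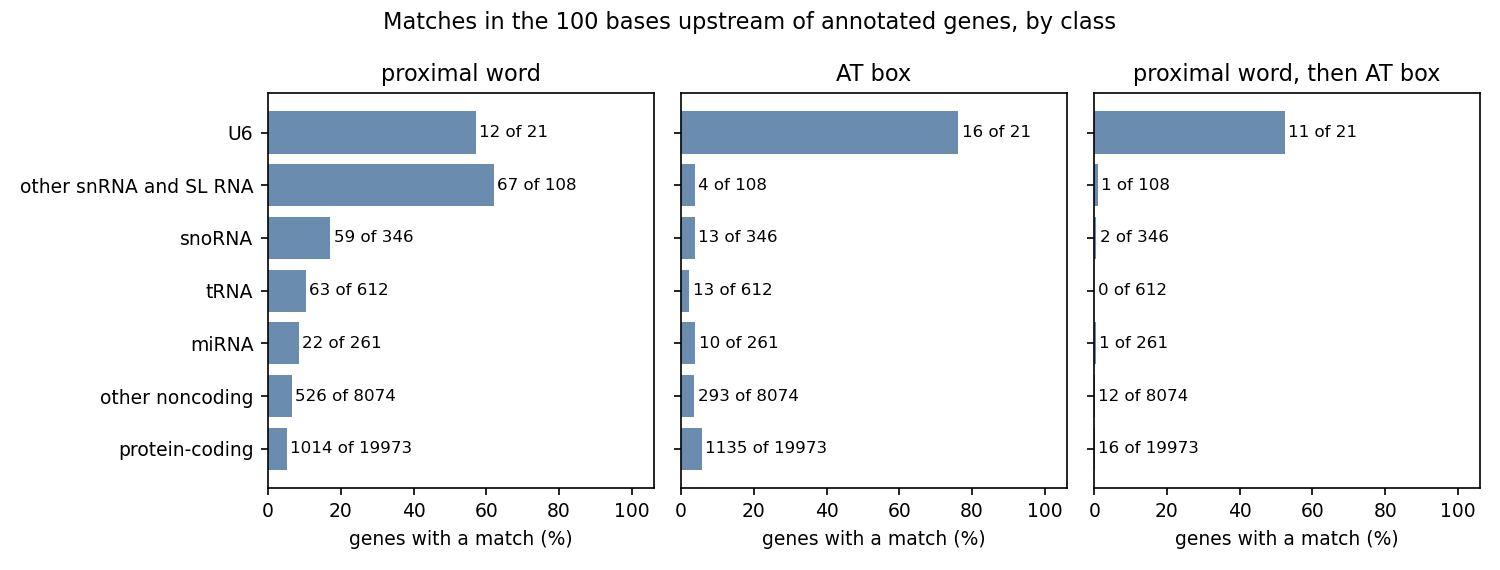
Percent of annotated genes in each class with the proximal word, with TATATA (labelled AT box) and with both 15 to 35 bases apart, in the 100 bases upstream of the gene, with counts beside the bars. The proximal word is common at all snRNA and SL RNA genes, while the AT box and the pair are common only at U6 genes among the classes drawn.

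The ends of the RNAs and their interiors were also read. A run of TTTT, the usual stop signal of RNA polymerase III, began at the base before the last one of *rpr-1* and *mrpr-1* and at the first base after it at *yrn-1*. TTTT also occurs farther inside *mrpr-1* and *yrn-1*, so at these genes it is not confined to the end. Runs of TTTT in the last 5 bases of the gene or the 20 after it were at all 21 U6 genes and 98.5% of nuclear tRNA genes. They were at 20.4% of other snRNA and SL RNA genes, 50.6% of snoRNA genes, 37.9% of miRNA genes, 27.4% of other noncoding genes and 47.6% of coding genes. The word GTTCGA of the internal B box, the tRNA promoter element bound by TFIIIC, was absent on both strands of all 3 RNAs, as on the RNA strand of all 21 U6 genes. On that strand it was in 3.71% of other noncoding genes, the class that holds the 3 genes, and in 72.2% of nuclear tRNA genes. The Y RNA and its end are shown with the first such TTTT in capitals, because it ends at the run; the stretch is chrIV:7499508-7499632, plus strand.
yrn-1: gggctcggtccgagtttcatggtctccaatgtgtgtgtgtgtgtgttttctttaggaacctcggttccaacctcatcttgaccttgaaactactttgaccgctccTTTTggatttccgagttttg

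Genes for proteins that work with these RNAs were read in the same lists. Of 5 genes, namely *popl-1*, *popl-4*, *popl-5* and *popl-7*, whose products are related to yeast RNase P and MRP proteins, and *rop-1*, which encodes Ro60, 0 had an IDR summit near a 5' end. Among coding genes 6.28% had one within 500 bp and 4.09% within 250 bp, so a count of 0 among 5 genes does not set them apart. In the pooled list 4 of the 5 had a candidate, against 37.9% of coding genes. The strongest were at *popl-7* (signal 12.8, rank 5773) and *rop-1* (10.6, rank 8487), both under the lowest IDR signal of 28.0. Signals at *popl-4* (9.43) and *popl-1* (7.45) were lower still, and *popl-5* had no candidate in any list.

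The genes for the signal recognition particle RNA, another RNA polymerase III product, were also compared. They were added after the other results were seen. Of 5 *srpr* genes 1 had an IDR summit within 500 bp, *srpr-2.2* (signal 35.4, rank 1353), against 7.89% of noncoding genes, and that summit lay 228 bp past the 5' end, inside the gene. The pair of words described above was at 0 of the 5, and it is rare among other noncoding genes too (0.149%). Signals at *srpr-1.1* (23.9), *srpr-3* (13.8) and *srpr-1.2* (12.3) were below the IDR range, and *srpr-2.1* had no candidate in any list. The 4 pooled signals were all below that of *yrn-1*, the weakest of the 3 RNA genes. Whether sequence shared among the *srpr* genes lowered their signals was not tested.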

How the data were processed

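ChIP-seq of eGFP-tagged SNPC-4 from 2 biological replicates was analysed from the authors' peak lists on ce11. Per the deposited description files, the authors called relaxed peaks for each replicate and for both together against a control alignment, and derived the IDR list from these. The deposited signal of each peak is the authors' strength value. Aligner and peak caller: not given in the sources used here.

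Genes were placed with the Ensembl 115 annotation of WBcel235. A summit (peak start plus the deposited offset) was assigned to a gene within 500 bp of its body, and peaks were ranked by signal within each list. U6 genes were snRNA genes of 95 to 110 bp holding ACAGAGA. Named genes were the 3 members, the genes overlapping or nearest to them, those 2 ranks above and below, and the protein list; the *srpr* genes were added later. The members and lists were chosen with earlier results of these data known, and no test was run. The words TGTCNG and TATATA, their spacing, the 28-base comparison and the check of 36-base words were chosen after the data were seen. The genes whose sequences stand beside those of the members are the U6 gene and the other snRNA gene (SL RNA genes aside) with the strongest IDR peaks outside chromosome I. The alternatives were other windows, each replicate alone, nuclear chromosomes, the 932 strongest IDR peaks, peak midpoints and upstream lengths of 60 and 150 bases. The searches were tested on simulated data. The ce10 lists were not used here. Computation used Python 3.11.15, numpy 2.4.6, pandas 2.3.3 and matplotlib 3.10.9.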

Additional observations from a re-analysis of the deposited data

How the results depend on the processing

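The 3 genes had an IDR summit at 250 and 1000 bp and among the 932 strongest IDR peaks, and the order of their signals held in each replicate. With 1 replicate left out the rank ran from 13 to 14 at *rpr-1*, 20 to 21 at *mrpr-1* and 661 to 766 at *yrn-1*, in lists of unequal length, and the summit position from -29 to -29, -44 to -35 and -51 to -28 bp. The peak midpoint at *rpr-1* was at -30 bp. On nuclear chromosomes alone *mrpr-1* ranked 20, since mitochondrial peaks stood above it. At 1000 bp the pooled list held 5 candidates at the genes in place of 3. TGTCNG followed by TATATA was at all 3 genes with 60 and 150 bases upstream, an alternative chosen after seeing the data. The 8-base word with up to 2 mismatches was at 2 genes within 100 bases and at 0 within 60, because its matches begin farther upstream than that. The count of noncoding genes with a summit was 744, and 443 with the 932 strongest IDR peaks, which are fewer. No paired analysis was possible because there is 1 group. Without reads, binding could not be told apart from differences in how reads were placed or in the control.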

Other observations

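Other noncoding genes carried the same pair of words. Of 27 nuclear noncoding genes other than piRNA genes with TGTCNG followed by TATATA after 15 to 35 bases, 16 (59.3%) had an IDR summit within 500 bp, and without *rpr-1*, *mrpr-1* and *yrn-1* it was 13 of 24 (54.2%). Among the 9399 such genes without the pair 728 (7.75%) had one. With the pair it was 4 of 11 U6 genes (36.4%) and 0 of 2 snoRNA genes. Whether sequence shared among the U6 genes lowered their share was not tested. The 1 miRNA gene and the 1 other snRNA gene with the pair had a summit, as did 10 of 12 other noncoding genes, which include the 3 genes. The genes with and without the pair thus differ in class, and the part of class was not tested. No test was run, since the pair was chosen after the 3 genes had been seen and some of the genes share a peak. Apart from the 3 genes and U6 genes, 9 genes of 58 to 134 bp had the pair and a summit, and the strongest summits of these genes lay at 7 distinct peaks. They were chosen after their values were seen.

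The strongest of these was *mir-2214* (signal 1021, rank 30), with its summit 56 bp upstream and TGTCNG starting at the same distance. *W01D2.7* and *W01D2.9* shared their strongest peak (1009), as did *M163.13* and *M163.15* (709), and those summits were -339 bp from the 5' end of *W01D2.9* and -360 bp from that of *M163.15*. Next were *CD4.18* (265), *M163.12* (170), *F52D10.13* (70.6) and *C15H11.12* (57.5), which is close to *yrn-1* (55.4). Around nuclear pooled summits, within 100 bp and on either strand, the pair was at 3 of 23 in ranks 1 to 25, or 1 of 21 without *rpr-1* and *mrpr-1*, and at 9 of 61 in ranks 26 to 100. It was at 6 of 825 in the ranks after 100 up to 932 (5 of 824 without *yrn-1*), at 1 of 930 in ranks 933 to 1864 and at 49 of 28136 other candidates (0.174%).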
